A study of Rattus norvegicus with 9 samples.

Results

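The genes described here encode trans-synaptic adhesion proteins, and their expression in the thalamus of young rats was set side by side under a diet that has to be chewed and one that does not. The 9 genes were Nrxn2 and Nrxn3, Nlgn1 and Nlgn3, Lrrtm1 and Lrrtm2, Lrrc4 and Lrrc4c, and Il1rapl1. Every probe set to which the platform annotation gives 1 gene symbol, that of a listed gene, was taken. That gave 12 of 31042 rat probe sets, standing for 7 of 14216 named genes. Nrxn2, Nrxn3, Nlgn1, Nlgn3 and Lrrc4 had 2 probe sets each, and Lrrtm1, whose symbol the annotation writes in capitals, and Lrrc4c had 1 each. The annotation used here lists no single-symbol probe set for Lrrtm2 or Il1rapl1, and these genes were not analysed here.

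Male Wistar rats, 3 weeks old at the start, all ate powdered feed for 2 days before the diets were split. The chow group (4 arrays) then ate solid feed and the powder group (5 arrays) went on with powdered feed, each for 8 days, and the labels give an age of 5 weeks for every sample. Total RNA from the thalamus, the relay between sense organs, brainstem and cortex, was measured on 1-colour arrays. The labels speak of 10 rats without tying arrays to animals. Each p-value therefore rests on the scatter among these arrays, which may be technical in part.

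Neurexins are presynaptic membrane proteins whose outer domains bind several kinds of postsynaptic partner across the cleft. Neuroligins and LRRTM proteins are such partners, and they recruit scaffolds and receptors on the postsynaptic side. The netrin-G ligands Lrrc4 (NGL-2) and Lrrc4c (NGL-1) instead bind the presynaptic netrin-G proteins, and Il1rapl1 binds the receptor phosphatase encoded by Ptprd.

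In the values as deposited, no member showed a diet difference that was both past the test and more than a fraction of a percent in size. After quantile normalization some did, such as Lrrc4c at 0.0258 (limma adjusted p = 9.86e-05), a size set by the rescaling, as described at the end. Nrxn3, Nlgn1 and Lrrtm1 each had 1 probe set that varied visibly between arrays, and on all 3 the chow mean was lower than the powder mean by less than the spread between arrays. Both Nlgn3 probe sets and 1 of 2 Lrrc4 probe sets passed the test toward higher under chow, with differences from 0.000199 to 0.000498 on the log2 scale. The sizes of these differences are read beside a property of the deposited values, given next.

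For 26193 of the rat probe sets (84.4%), the 9 deposited values spanned less than 0.01 log2 units, and such probe sets are called compressed here. The limit of 0.01 was taken from earlier results of these data. Of the 12 member probe sets, 9 were compressed, with spans from 0.000224 to 0.00133. The other 3 spanned 0.191 for Nlgn1, 0.490 for Lrrtm1 and 0.875 for Nrxn3, around the median of 0.424 over all 4849 uncompressed probe sets. No member lay near the limit, as the plot of spans shows. Member probe sets that stand for a RefSeq mRNA were all compressed (4 of 4), while 3 of the 8 that stand for another accession were not. Over all single-symbol probe sets, 17.1% of those for a RefSeq mRNA and 16.4% of the others were uncompressed, so the kind of accession did not separate them in general.

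**Figure D1:**
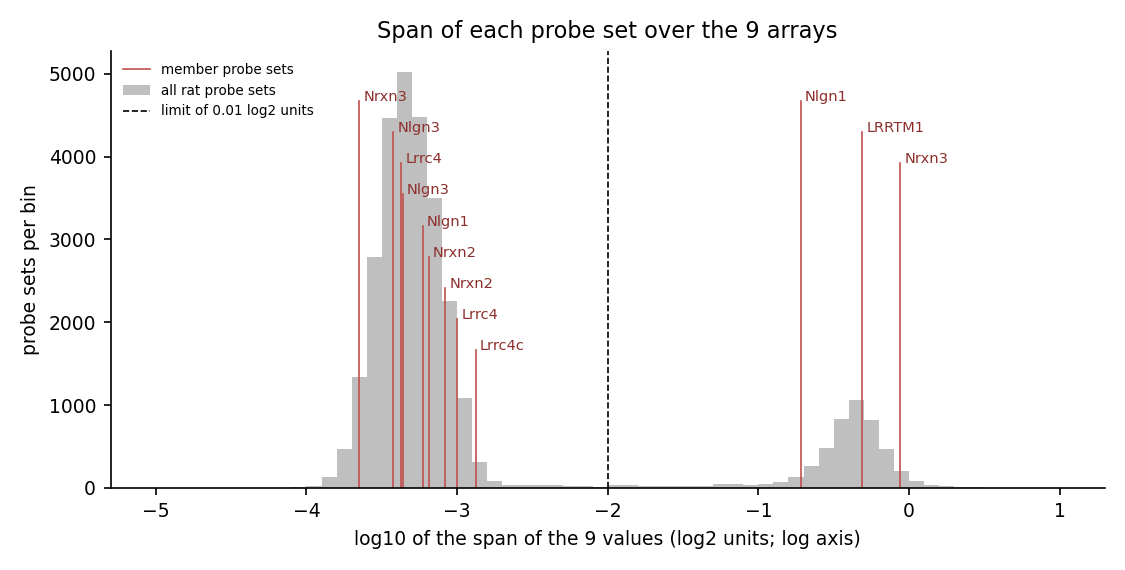
Histogram of the span of the 9 deposited values of each rat probe set, on a log axis, with each member probe set marked by a red line and the limit of 0.01 log2 units dashed; the heights of the red lines carry no value. The members fall into both modes, 9 under the limit and 3 above it.

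The defining genes of thalamic relay neurons Prkcd, Slc17a6 and Tcf7l2 each had a probe set averaging 11.3 or more in both groups, in a table whose lowest value is 5.37. The sample chow 1 stood apart. The summed linear value (2 raised to the deposited value) of 16 probe sets for thalamic relay neuron markers was 12364 on chow 1, 16300 to 18604 on the other chow arrays and 17035 to 18726 on the powder arrays. The sum for 7 probe sets of striatal neuron markers was 3511 on chow 1, 1412 to 1661 on the other chow arrays and 1399 to 1573 on the powder arrays. Chow 1 was the lowest of the 9 arrays on all 12 uncompressed probe sets of thalamic relay markers. It was the highest on all 6 uncompressed striatal marker probe sets, among them those of Penk, Drd2 and Ppp1r1b. The sum for reticular nucleus and other GABA neuron markers was 6456 on chow 1, 4265 to 5039 on the other chow arrays and 4138 to 5027 on the powder arrays. Those markers were split, since chow 1 was the highest array on 6 of their 8 uncompressed probe sets and the lowest on 2. Hypothalamic marker sums were 4498, 2178, 1962 and 4652 on chow 1 to 4, and 980, 1675, 3969, 4702 and 1500 on powder 1 to 5. Sums for vessel markers were 2682 to 2839 on the chow arrays and 2845 to 2952 on the powder arrays, and those for cortex and hippocampus markers were 3233 to 3438 on the chow arrays and 3457 to 3695 on the powder arrays. In neither did the groups overlap, and their part in the member values was not tested. Of the 4 uncompressed probe sets for cortex and hippocampus markers, 1 was called, Prox1 1376672_at (-0.354, limma adjusted p = 0.0110). Camk2a 1381637_at was at -0.229, while Camk2a 1388187_at (0.038) and Slc17a7 1368987_at (0.094) went the other way. The sum is therefore not read as a shift shared by these markers. In bulk tissue, fewer cells of a type and less RNA per cell cannot be told apart. Chow 1 was also the highest or the lowest of the 9 arrays on 8 of the 12 member probe sets, against 40.0% of all rat probe sets, so the difference of each member probe set is given with and without it.

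Among the presynaptic members, Nrxn3, a neurexin gene, had 1 uncompressed probe set, 1381676_at, which was among the dimmest 25% of rat probe sets. Its deposited log2 values were 6.54, 6.21, 6.32 and 6.47 on chow 1 to 4, against 6.57, 6.31, 6.54, 6.59 and 7.08 on powder 1 to 5. The groups overlapped, since powder 2 and powder 3 lay within the chow range. Powder 5 exceeded the next array by more than the chow arrays spanned. Means were 6.39 ± 0.150 for the 4 chow arrays and 6.62 ± 0.283 for the 5 powder arrays (SD). The log2 difference, chow minus powder, was -0.23 ± 0.153 (SE), a 0.852-fold level with a 95% interval from 0.664 to 1.09. It did not pass limma's test over all rat probe sets (Benjamini-Hochberg adjusted p = 0.260). Without powder 5 the difference was -0.12 (limma adjusted p = 0.378), and without chow 1 it was -0.28 (limma adjusted p = 0.243).

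The other Nrxn3 probe set, 1368261_at, stands for the RefSeq mRNA. It stayed at 10.30 on all 9 arrays, with a span of 0.000224 and a difference of -7.85e-05 ± 4.22e-05 (limma adjusted p = 0.176). Without chow 1 it was -5.33e-05 (limma adjusted p = 0.365). Both Nrxn2 probe sets, for the companion neurexin gene, were compressed and took opposite signs. The difference was -0.000139 ± 0.000117 for 1368875_a_at (limma adjusted p = 0.368) and 0.000344 ± 0.000122 for 1368876_a_at (limma adjusted p = 0.0627). Without chow 1 the 1368875_a_at difference was -3.36e-05 (limma adjusted p = 0.787) and that of 1368876_a_at was 0.000385 (limma adjusted p = 0.0805). Names ending in _a_at mark probe sets whose probes are shared by alternative transcripts of 1 gene, so neither reading belongs to a single neurexin transcript.

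Nlgn1, the neuroligin known for excitatory synapses, had 1 uncompressed probe set, 1381583_at. Its values were 8.28, 8.15, 8.12 and 8.17 on chow 1 to 4, against 8.20, 8.23, 8.31, 8.14 and 8.19 on powder 1 to 5. Chow 1 and powder 3 were the highest arrays, and the groups overlapped over most of their ranges. The 4 chow arrays averaged 8.18 ± 0.0693 and the 5 powder arrays 8.21 ± 0.0613 (SD). The difference of -0.036 ± 0.042 (0.975-fold, 95% interval 0.911 to 1.04) did not pass the test (limma adjusted p = 0.520). This was the narrowest interval among the 3 uncompressed members. Without chow 1 the difference was -0.069 (limma adjusted p = 0.199), and without powder 3 it was -0.012, the smallest with any array left out. The second Nlgn1 probe set, 1369041_at, was compressed at 8.17 and differed by 0.000118 ± 0.000107 (limma adjusted p = 0.403), or by 1.35e-05 without chow 1 (limma adjusted p = 0.893).

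Nlgn3, a neuroligin found at both excitatory and inhibitory synapses, was the 1 member with both probe sets called (adjusted p under 0.05), and both were compressed. On 1387409_x_at, in units of 0.001 log2 from the mean over the 9 arrays, chow 1 to 4 were at 0.221, 0.132, 0.201 and 0.0985, and powder 1 to 5 were at -0.213, -0.181, -0.0993, 0.00841 and -0.167. All 4 chow arrays lay above all 5 powder arrays. The difference was 0.000294 ± 0.000051 log2 units, a 1.0002-fold level (limma adjusted p = 0.00732). On 1375494_a_at the difference was 0.000199 ± 0.000058 (limma adjusted p = 0.0356), and there chow 2 lay below powder 4. The first call held with each array left out in turn (limma adjusted p from 0.00565 to 0.0204). The second was lost without chow 1, 3 or 4 or powder 1, 2, 3 or 5 (limma adjusted p from 0.0529 to 0.0801). Without chow 1 the 1387409_x_at difference was 0.000274 (limma adjusted p = 0.0204) and that of 1375494_a_at was 0.000163 (limma adjusted p = 0.0801). An ending of _x_at marks a probe set with some probes like sequences of other genes, so the better-separated Nlgn3 reading may include other transcripts.

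Lrrtm1, a leucine-rich repeat ligand of neurexins, had the 1 probe set 1390899_at, and it was uncompressed. Its values were 9.24, 9.61, 9.73 and 9.52 on chow 1 to 4, against 9.72, 9.72, 9.69, 9.52 and 9.69 on powder 1 to 5. Chow 1 was the lowest array, chow 3 the highest, and powder 4 lay beside chow 4, apart from the other powder arrays. The mean was 9.52 ± 0.209 over the 4 chow arrays and 9.67 ± 0.0846 over the 5 powder arrays (SD). The difference of -0.14 ± 0.098 (0.906-fold, 95% interval 0.772 to 1.06) did not pass the test (limma adjusted p = 0.279). Without chow 1 it was -0.047 (limma adjusted p = 0.600), which is the largest effect of leaving out 1 array on this gene. Chow 1 is also the array with the lowest thalamic relay and highest striatal marker sums given above. The hypothalamic marker sum was highest on powder 4, chow 4 and chow 1, the arrays where Lrrtm1 was lowest. On powder 3 that sum was 3969, and Lrrtm1 was 9.69. The part of these marker sums in the Lrrtm1 values was not tested.

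**Figure D2:**
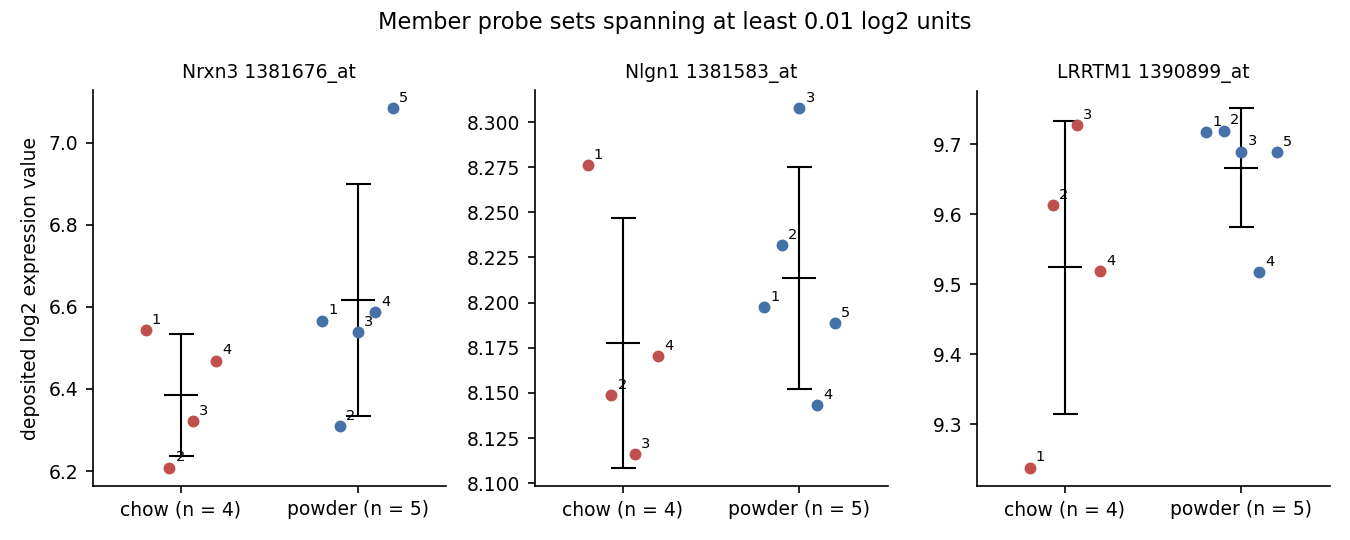
Deposited log2 values of the 3 uncompressed member probe sets on each array (numbered points; chow left, powder right; bars are mean ± SD; each panel has its own axis, which does not start at 0). The groups overlap in all 3 panels, with chow 1 lowest for Lrrtm1 and powder 5 highest for Nrxn3.

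**Figure D3:**
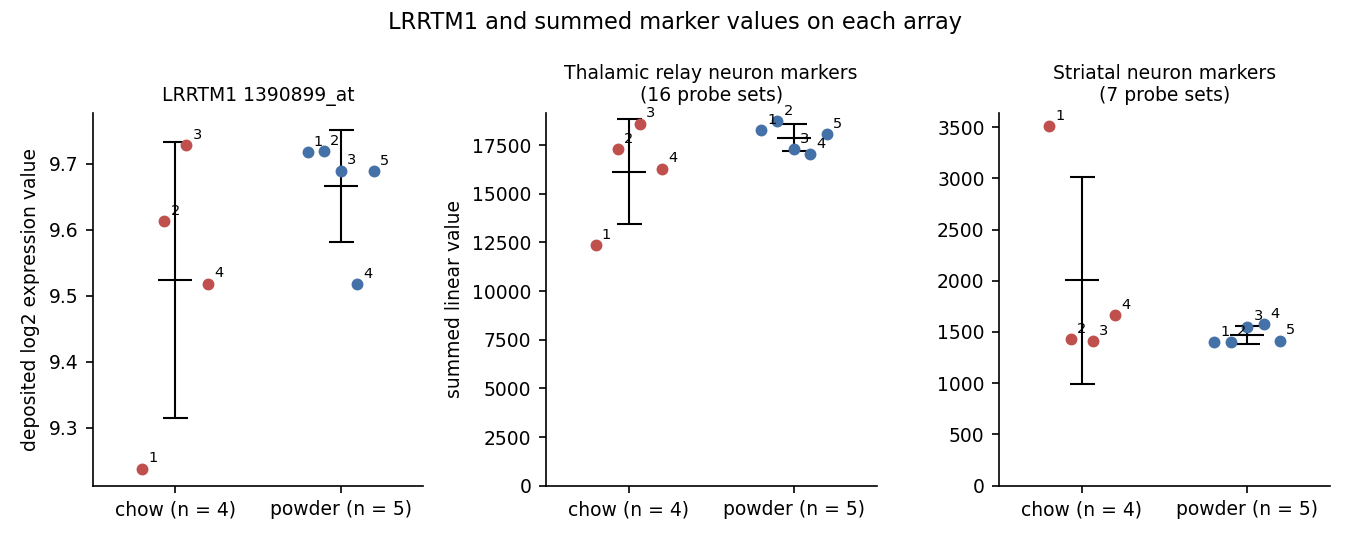
Lrrtm1 beside the summed linear values of thalamic relay neuron markers (16 probe sets) and striatal neuron markers (7 probe sets) on each array (numbered points; bars are mean ± SD, n = 4 chow and 5 powder; the Lrrtm1 axis is log2 and does not start at 0). Chow 1 is the lowest array for Lrrtm1 and the relay markers and the highest for the striatal markers.

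Among the netrin-G ligands, Lrrc4 had 2 compressed probe sets that went opposite ways. On 1386677_at, in units of 0.001 log2 from the 9-array mean, chow 1 to 4 were at 0.472, 0.308, 0.0599 and 0.267, and powder 1 to 5 were at -0.0682, -0.259, -0.0264, -0.222 and -0.531. The groups did not overlap, and the difference was 0.000498 ± 0.000122 (limma adjusted p = 0.0208). This was the largest difference among the compressed members, and it still amounted to a 1.0003-fold level. The call was lost without chow 1 or chow 2 (limma adjusted p up to 0.0501), and without chow 1 the difference was 0.000433. On 1385754_s_at the difference was -0.000189 ± 0.000069 (limma adjusted p = 0.0681), and an ending of _s_at marks probes shared by transcripts of more than 1 gene. Without chow 1 it was -0.000230 (limma adjusted p = 0.0541). Without powder 5 it was -0.000224 and was called lower under chow (limma adjusted p = 0.0481). Lrrc4c was compressed at 8.65 on its probe set, 1382479_at, with a difference of -0.000108 ± 0.000288 (limma adjusted p = 0.783), or -0.000390 without chow 1 (limma adjusted p = 0.155). Chow 1 was its highest array and chow 2 its lowest, so the chow arrays alone covered the whole span of 0.00133.

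**Figure D4:**
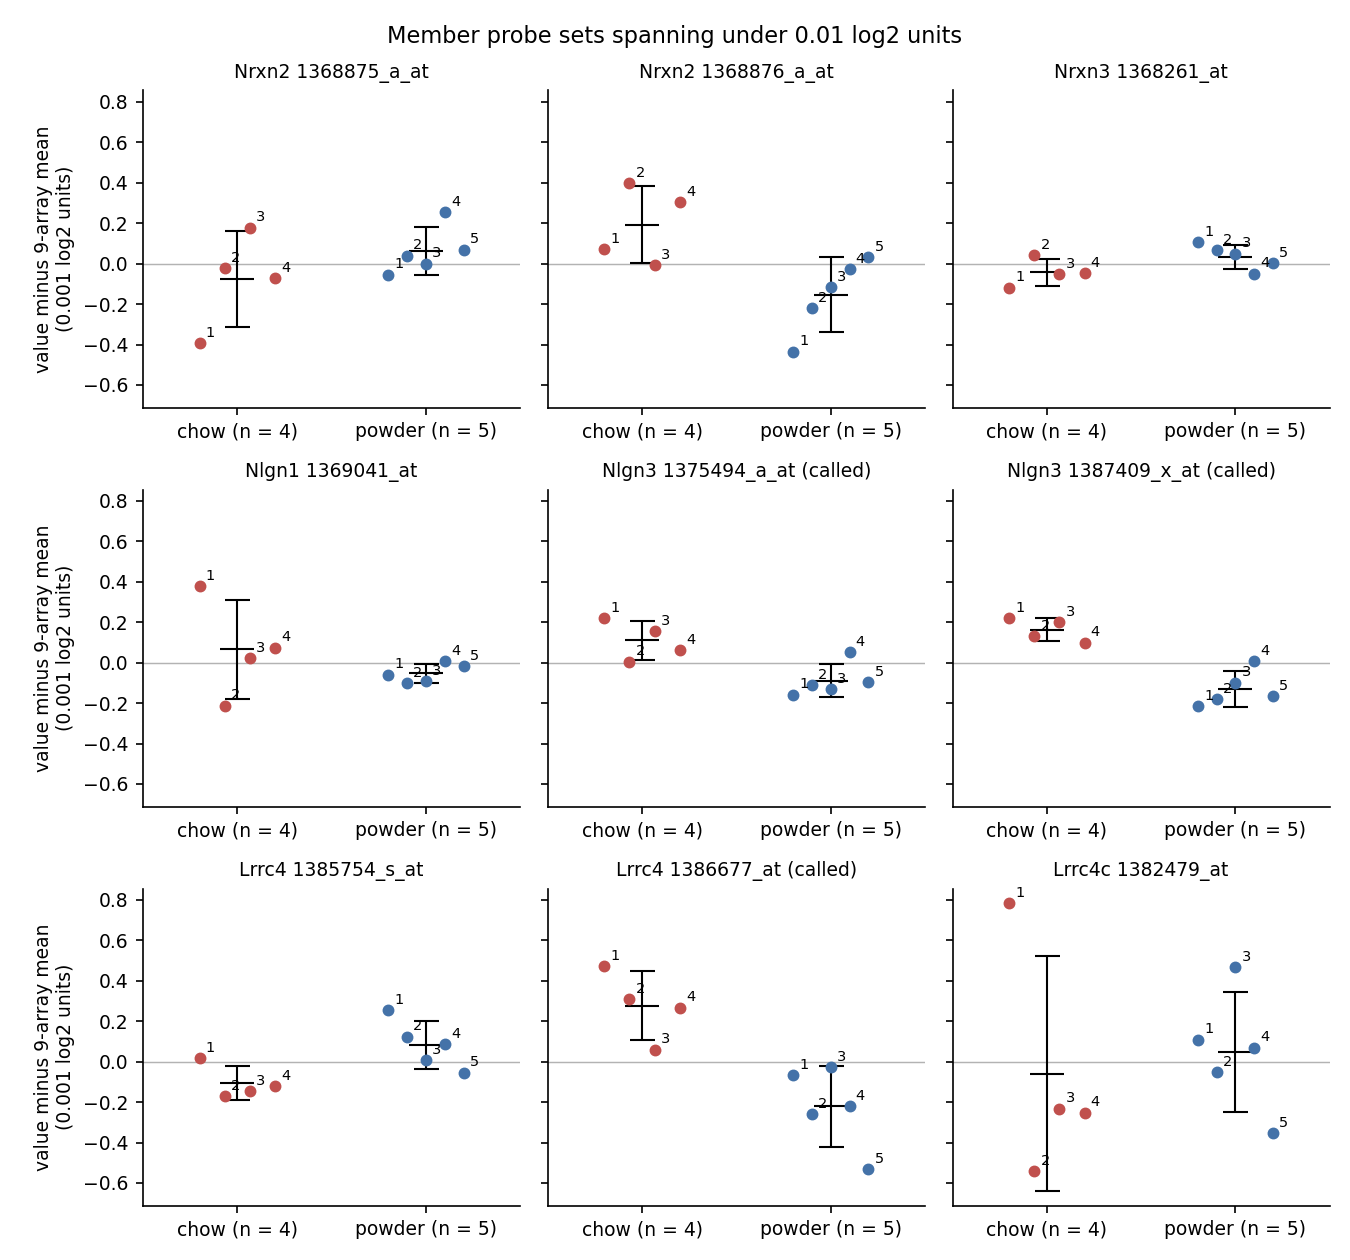
Deviation of each deposited value from its probe set's mean over the 9 arrays, in units of 0.001 log2, for the 9 compressed member probe sets (numbered points; chow left, powder right; bars are mean ± SD). Groups are separate only for Nlgn3 1387409_x_at and Lrrc4 1386677_at, and all deviations are under 0.001 log2 units.

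Over the list, 3 of 12 member probe sets were called, all 3 higher under chow, where 34.6% of all rat probe sets were called, 17.9% higher and 16.7% lower. All 3 calls were among the 9 compressed members, and 30.9% of all compressed probe sets were called, 18.2% higher and 12.7% lower. None of the 3 uncompressed members was called by limma, and 0 of them had an unadjusted p under 0.05. The exact permutation test over samples also called 0 of the 3. Among all uncompressed probe sets 54.9% were called, 16.1% higher and 38.8% lower. The groups did not overlap for 2 of 12 members, against 29.9% of all rat probe sets. The median absolute difference of the 3 uncompressed members was 0.14, and that of all uncompressed probe sets was 0.19. Without chow 1 the count of called members was 1, Nlgn3 1387409_x_at, and the share of all rat probe sets called without chow 1 is not given here. With 1 probe set per gene, the one of highest mean value, Nlgn3 was the 1 gene called of the 7, where 32.9% of all genes were called. The 5 compressed members with positive differences and the 4 with negative ones are not read as directions, because all 9 were positive after quantile normalization and with array medians subtracted.

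The partners and relatives of these proteins were taken from a wider list of 86 adhesion genes, of which 68 had 124 single-symbol probe sets. Of these, 44 were called, 23 higher and 21 lower under chow, close to the 34.6% of all rat probe sets. After quantile normalization the split was 78 higher and 9 lower, and with array medians subtracted it was 100 and 10. The shares of all rat probe sets under these rescalings are not given here, so these splits are not read as a result about the list. Without powder 1, 29 were called, and without chow 1, 31 were, 17 higher and 14 lower. For these runs, too, the shares of all rat probe sets are not given here. Of the 33 uncompressed probe sets, 15 (45.5%) were called, 7 higher and 8 lower. Over all uncompressed probe sets 54.9% were called, 16.1% higher and 38.8% lower. Each of the 15 kept its direction and call under both rescalings. The companion neuroligin Nlgn2 had 2 compressed probe sets. On 1397705_at it was called lower under chow, with groups that did not overlap (-0.000227 ± 0.000050, limma adjusted p = 0.0144), and on 1368895_at it was not called (0.000184 ± 0.000092, limma adjusted p = 0.151).

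Lrrc4b (NGL-3), the closest relative of Lrrc4 and Lrrc4c, rose under chow on 1375149_at. Its values were 8.13, 8.18, 8.14 and 8.15 on chow 1 to 4, against 8.04, 8.01, 8.06, 8.04 and 8.08 on powder 1 to 5. The groups did not overlap, and the difference was 0.10 ± 0.016 (limma adjusted p = 0.00485). It was called with each array left out in turn, while 2 further probe sets of Lrrc4b were compressed and not called. Ptprs, a receptor phosphatase that binds postsynaptic adhesion proteins, was at 0.28 ± 0.068 on 1370488_a_at (limma adjusted p = 0.0208), a call lost without chow 2 (adjusted p = 0.0533). A second uncompressed Ptprs probe set was at 0.057 and not called, and the compressed 1387901_at was called the other way (-0.000273).

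The uncompressed probe sets of Ntng1, Ptprd, Cbln1 and Cbln2, which encode extracellular partners of the members, did not pass the test. Ntng1, the netrin-G that binds Lrrc4c, was at -0.19 ± 0.137 (limma adjusted p = 0.289), with 9.87 on chow 1 against 10.22 to 10.57 on the other 8 arrays. Ptprd, the partner of Il1rapl1, had uncompressed probe sets at -0.18 and 0.12 (limma adjusted p = 0.147 and 0.481). The cerebellins Cbln1 and Cbln2, secreted linkers that bind neurexins, were at -0.31, -0.18 and -0.17 on 3 uncompressed probe sets (limma adjusted p from 0.148 to 0.328), and chow 1 was the lowest array on each.

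Dag1, the gene of dystroglycan, another neurexin ligand, rose on both uncompressed probe sets (0.28 ± 0.048 and 0.25 ± 0.052, limma adjusted p = 0.00692 and 0.0131). The adhesion genes Cdh2 (-0.35), Ncam1 (-0.35) and Tenm2 (-0.24) fell on 1 uncompressed probe set each (limma adjusted p = 0.00463, 0.0165 and 0.0187). These 3 calls and both of Dag1 held with each array left out in turn, as did that of Apba2 (0.011), which encodes a neurexin-binding Mint adaptor. The Apba2 values spanned 0.0183, little over the limit of 0.01, and the difference was a 1.008-fold level. That difference was 0.0180 with array medians subtracted and 0.0383 after quantile normalization. The other compressed probe sets of Cdh2, Ncam1 and Tenm2 were not called. Calls on C1ql3 (0.22), the splicing regulators Khdrbs1 (0.26) and Rbfox1 (-0.23) and the teneurin Tenm3 (-0.21) were less stable. So were those on the Mint adaptor Apba1 (-0.21), L1cam (-0.18) and Dlg4 (-0.18), the gene of PSD-95. Khdrbs1 and Rbfox1 also had compressed probe sets called the other way. Each of the less stable calls was lost on leaving out any 1 of 4 to 8 of the 9 arrays, with limma adjusted p up to 0.102. The arrays that kept the call when left out were chow 3 for Apba1, powder 2 and 4 for C1ql3, and chow 1, 2 and 3 for Tenm3. They were chow 2 and 4 and powder 4 for Khdrbs1, chow 3 and powder 4 and 5 for Rbfox1, chow 3 and powder 1 and 3 for L1cam, and chow 3 and each powder array but powder 1 for Dlg4.

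**Figure D5:**
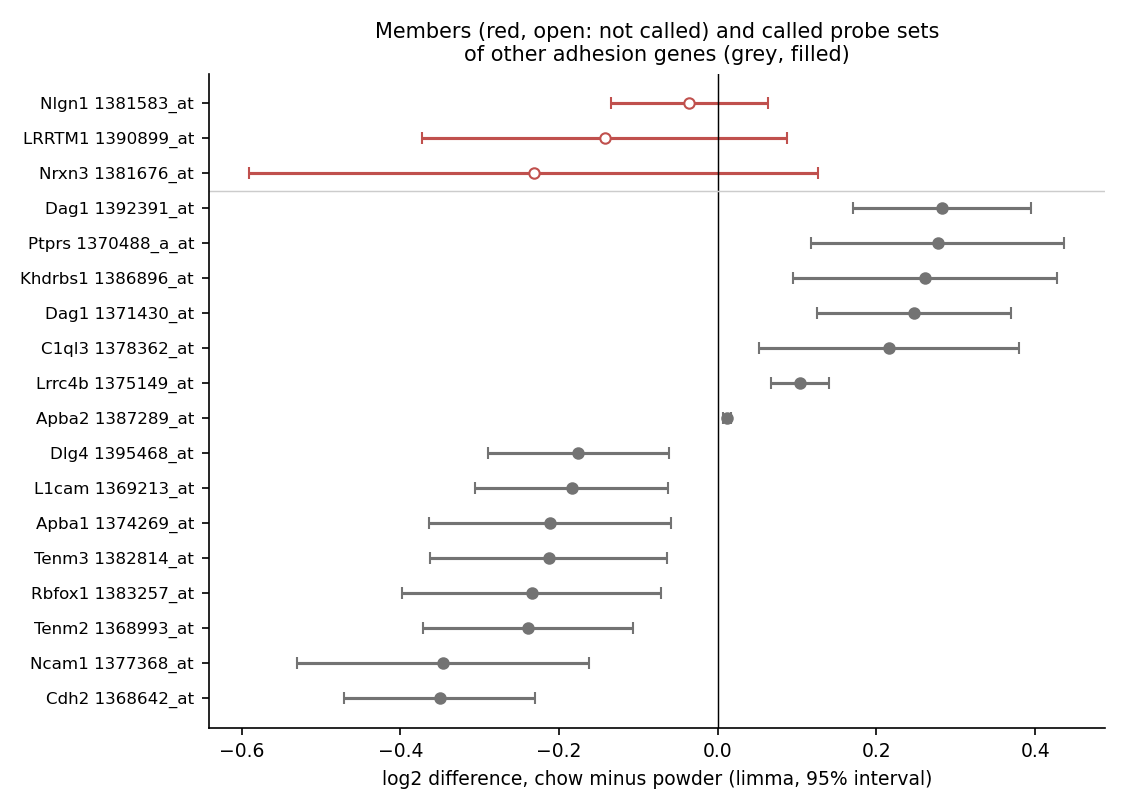
Log2 difference, chow minus powder, with limma's 95% interval, for the 3 uncompressed members (red, open, not called) and the 15 called uncompressed probe sets of other adhesion genes (grey, filled). The intervals of Nlgn1, Lrrtm1 and Nrxn3 include 0, and that of Nrxn3 is the widest shown.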

How the data were processed

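The deposited table holds 1 log2 value per probe set and array, made by the authors. How the values were computed from the scans, software and normalization included, is not given in the sources used, and the log2 scale was read from the values (5.37 to 14.0). Per the labels, biotin-labelled cRNA was made from 100 ng of total RNA. No detection calls were used, so no background level could be set, and the number of arrays (4 and 5) limits the precision. By its median value, each chow array (7.391 to 7.396) lay below each powder array (7.398 to 7.402). The members called as deposited differed by 0.00677 to 0.00707 once these medians were subtracted, against 0.000199 to 0.000498 before.

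After 57 control probe sets were left out, limma 3.58.1 in R 4.3.3 (lmFit, eBayes, no covariates) was fitted to all 31042 rat probe sets with diet as the factor. A probe set was called where its p, adjusted by Benjamini-Hochberg over all of them, was under 0.05. Differences are chow minus powder and folds are 2 raised to them. Genes were named from the platform annotation, matched without regard to case, and Entrez IDs looked up in RefSeq's GRCr8 gene table changed 0 symbols. No coordinates are given because no build is named for the array.

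The members and lists were chosen with earlier results of these data known. All member probe sets are named, and in the wider list up to 3 called uncompressed probe sets per role and direction. A further naming rule, for genes whose pattern is most like that of a called uncompressed member, had 0 members to apply to. Partners that were not called, and marker genes, were named after their values were seen. The alternatives were rescaling, other variance models, filters, array weights, a replicate block, leaving out each array and an exact permutation test. The fit was tested on simulated data.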

Additional observations from a re-analysis of the deposited data

Results flagged for a closer look

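In 78 groups of 4 or 5 values (12 member probe sets, 15 named probe sets of other adhesion genes and 12 marker sums, each under chow and powder), 6 had an end value far from the others by Dixon's ratio of gap to range. Chance gives about 1 in 20. Lrrtm1 on powder 4 was at 9.52, against 9.69 for the nearest powder array (ratio 0.850). Without powder 4 and with all arrays, the Lrrtm1 difference did not pass the test. Dlg4 was highest on powder 4 among the powder arrays (8.72 against 8.56, ratio 0.711), and C1ql3 was lowest on chow 4 among the chow arrays (8.15 against 8.22, ratio 0.894). Among the chow arrays the striatal marker sum was highest on chow 1 (3511 against 1661, ratio 0.881) and the cortex and hippocampus marker sum lowest there (3233 against 3429, ratio 0.957). The choroid plexus marker sum was highest on chow 3 (981 against 592, ratio 0.888).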

How the results depend on the processing

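None of the 3 uncompressed members was called under any alternative run, and their differences stayed negative in all. The 3 called members became 8 after quantile normalization, 9 with array medians subtracted, 5 at an adjusted p under 0.1, 1 by the exact permutation test (Lrrc4 1386677_at) and 0 when compressed probe sets were left out of the fit, which removes them by construction. They ranged from 1 to 3 with 1 array left out, and without powder 5 they were 2 higher and 1 lower under chow. The 44 calls of the wider list became 87, 110, 24 (permutation) and 16 (compressed left out, of 33), and ranged from 29 to 42 with 1 array left out. The shares of all rat probe sets called under these settings are not given here. These changes in count are therefore not read as results about the members or the wider list. Differences reversed on compressed members after quantile normalization and with medians subtracted: Nrxn2 1368875_a_at (0.0238 and 0.00643), Nrxn3 1368261_at (0.0240 and 0.00649), Lrrc4 1385754_s_at (0.00734 and 0.00638) and Lrrc4c (0.0258 and 0.00646). These values exceed the spans as deposited, so the rescaling set them. Lrrc4c was also positive without chow 2 (5.24e-05; range from -0.00039).

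With the replicate number as a block, 0 members and 0 of the wider list were called (5 and 41 at an unadjusted p under 0.05). Among those 5 was 1 of the 3 uncompressed members, against 0 in the fit without the block. The share of all rat probe sets called with the block is not given here, so this loss of calls is not read as particular to these genes. The replicate numbers share no stated source. The correlations of same-numbered deviations were -0.31, 0.19, -0.34 and -0.16, and no chow array correlated best with its own number. With so few arrays in each group, these correlations cannot decide whether the numbers pair the samples. Powder 5 adds nothing to the fit with the block. Nrxn3 1381676_at was not tested with the dimmest 25% of probe sets left out.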
